A study of Mus musculus with 12 samples.

Results

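Krüppel-like factors are zinc-finger transcription factors that bind GC-rich and CACCC sequences in promoters. The 9 genes Klf2, Klf3, Klf4, Klf5, Klf6, Klf9, Klf10, Klf13 and Klf15 were described here in mouse muscle stem cells (MuSCs), and were found by exact match of their names among the 55335 genes of the count files. All 9 passed the filter on low counts. Each was measured by RNA-seq in 12 libraries, with 3 libraries in each of 4 groups. All cells came from the hindlimb of Pax7-ZsGreen transgenic mice, aged 3 to 6 months, in which the Pax7 promoter drives a green fluorescent protein, and were sorted on that fluorescence. F cells were freshly isolated and lysed without culture (replicates 1, 4 and 5). The 2d-U and 5d-U cells were kept without compression for 2 days (replicates 1, 2 and 3) and for 5 days (replicates 1, 2 and 6). The 2+3d-C cells were cultured for 2 days and then held for 3 days under a pillared compression device (replicates 4, 5 and 10). All cultures were on Matrigel-fibronectin-coated plastic in the same growth medium, with FGF, horse serum, fetal bovine serum and chicken embryo extract, so the 2+3d-C and 5d-U cells had the same total time in culture. The libraries do not name the animals or sorts that they came from, so the p-values measure only the spread between these libraries, which may in part be technical.

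The family shares 3 zinc fingers at the end of the protein, and its members differ mainly in the cofactors that the rest of the protein recruits. Klf2 and Klf4 are close relatives, known as early-response genes and, in endothelial cells, as genes induced by blood flow through ERK5 and MEF2 factors. Klf9 and Klf15 are known targets of the glucocorticoid receptor, and Klf10 was first described as an early gene of TGF-beta signalling. In skeletal muscle, Klf15 is known for its part in amino acid and lipid metabolism, and several members are linked to myoblast differentiation.

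The promoters of the members called higher in compressed cells than in uncompressed culture are shown because these genes were high and low in the same libraries, with that of Klf2, the closest relative of Klf4, which was not. The set of RefSeq (GRCm38.p6) promoters used here held 7 of the 9 members, and Klf5 and Klf10, which it lacked, are named only. Each sequence is the 250 bases before the start site, read 5′ to 3′ on the strand of the gene. Capitals mark every match, on either strand, to the CACCC box, the GC box GGGCGG, the AP-1 site TGANTCA, the cyclic AMP response element TGACGTCA, the TATA box TATAAA, the MEF2 site or the CArG box bound by serum response factor. No match of one motif was merged with another, so a run of capitals can hold overlapping matches. The stretches lie at chr4:55532476-55532725 (minus strand) for Klf4, chr19:23140976-23141225 (plus) for Klf9, chr13:5861239-5861488 (plus) for Klf6, chr6:90462326-90462575 (plus) for Klf15 and chr8:72318812-72319061 (plus) for Klf2.
Klf4: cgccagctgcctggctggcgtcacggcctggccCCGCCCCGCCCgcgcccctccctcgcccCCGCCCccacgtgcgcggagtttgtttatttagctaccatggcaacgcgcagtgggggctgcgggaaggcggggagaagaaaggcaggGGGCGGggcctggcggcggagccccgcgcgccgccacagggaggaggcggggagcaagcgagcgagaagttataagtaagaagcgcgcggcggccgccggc
Klf9: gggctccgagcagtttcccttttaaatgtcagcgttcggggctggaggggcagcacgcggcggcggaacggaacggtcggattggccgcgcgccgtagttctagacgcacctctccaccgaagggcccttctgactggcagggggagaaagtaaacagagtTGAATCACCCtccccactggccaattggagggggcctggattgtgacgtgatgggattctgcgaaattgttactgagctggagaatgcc
Klf6: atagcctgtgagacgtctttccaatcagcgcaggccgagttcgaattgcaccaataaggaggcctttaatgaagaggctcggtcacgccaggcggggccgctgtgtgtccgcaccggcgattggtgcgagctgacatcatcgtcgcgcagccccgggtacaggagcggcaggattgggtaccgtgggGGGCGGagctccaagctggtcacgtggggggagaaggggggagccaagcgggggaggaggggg
Klf15: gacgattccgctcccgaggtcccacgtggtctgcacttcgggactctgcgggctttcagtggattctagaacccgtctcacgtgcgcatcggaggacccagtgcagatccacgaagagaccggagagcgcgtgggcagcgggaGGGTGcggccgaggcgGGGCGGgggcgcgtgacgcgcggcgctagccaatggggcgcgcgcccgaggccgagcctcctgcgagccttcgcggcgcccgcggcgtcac
Klf2: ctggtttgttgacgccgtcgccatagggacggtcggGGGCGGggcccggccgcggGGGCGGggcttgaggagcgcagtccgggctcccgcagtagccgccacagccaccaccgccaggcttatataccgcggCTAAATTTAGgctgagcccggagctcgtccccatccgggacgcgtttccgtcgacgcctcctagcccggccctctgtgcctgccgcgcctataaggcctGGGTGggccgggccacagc

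The Klf4 stretch held 4 copies of GGGCGG and none of CACCC, and that of Klf6 held 1 GGGCGG. The Klf9 stretch had 1 CACCC, whose first base lay 84 bases before the start, and 1 TGANTCA that began 89 bases before it. The Klf15 stretch had 1 copy each of CACCC and GGGCGG. The Klf2 stretch had 1 match to the MEF2 site, which began 118 bases before the start, beside 1 CACCC and 2 GGGCGG. Of all 32851 promoter stretches of this length in the table, 52% held CACCC, 32.7% GGGCGG, 6.75% TGANTCA, 2.92% a MEF2 site, 1.47% a CArG box, 12.4% TATAAA and 1.55% TGACGTCA. The last 3 of these motifs had no match in any of the 7 stretches. The 7 stretches were GC-rich, from 59.6% in Klf9 to 78.4% in Klf3, against a median of 52.4% over all promoters. No motif was common to the 4 genes called higher.

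The libraries held 12540745 to 62424851 reads on genes. In 4 of them, reads also fell on 1853 genes of families that were taken to be silent in these cells. These 4 were replicates 4 and 5 of F and replicates 1 and 6 of 5d-U. The density of such reads was 0.641 to 7.24 reads per kb there, against 0.00967 to 0.229 in the other 8. Such a density would add at most 0.183 RPKM to a gene in any library, which matters only for Klf15. RPKM are reads per kb of exon, divided by library sizes scaled with TMM (trimmed mean of M-values), and were used to compare levels between genes. The 8 MuSC markers were detected in every group, and their summed level was 7660 to 12500 CPM (reads scaled to library size, without gene length) in 2+3d-C against 1790 to 4210 CPM in the other 9 libraries. The largest part of the 2+3d-C sum was Myod1, at a mean of 5930 CPM. The study defined stem cells as positive for Pax7 and negative for MyoD by protein, so the sum is no measure of the stem cell state. Against 5d-U, 5 of the 8 were called higher in 2+3d-C and 0 lower, where 9.14% of all genes tested were called higher and 13.4% lower. Markers of other cell types moved with culture and compression too. The 7 endothelial markers summed to 1060–1640 CPM in F, 2.73–6.42 CPM in 2d-U, 2.09–29.4 CPM in 5d-U and 230–268 CPM in 2+3d-C, and none of them was at 0 in all libraries of a group. The 5 fibroadipogenic markers summed to 1990–5640 CPM in F and 236–604 CPM in 2+3d-C, and to at most 54.2 CPM in the uncompressed cultures. The 5 smooth muscle or pericyte markers had 408–712 CPM in F, at most 15.7 CPM in the uncompressed cultures and 83.7–146 CPM in 2+3d-C. The 4 glial markers had 185–257 CPM in F, at most 7.92 CPM in the uncompressed cultures and 71.8–133 CPM in 2+3d-C. The 6 immune markers had 400–1040 CPM in F, 0.665–2.44 CPM in 2d-U, 1.47–117 CPM in 5d-U and 5.48–76.2 CPM in 2+3d-C. The 5 mature myofiber markers ranged from 23.5 to 2050 CPM in F and from 153 to 1530 CPM in 5d-U, against 42.8–77.7 CPM in 2d-U and 50.3–139 CPM in 2+3d-C. Klf2 and Klf4 are themselves well expressed by endothelial cells. The part of these cells in the results was not tested, and in bulk libraries fewer cells of a type cannot be told apart from less RNA per cell.

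**Figure D1:**
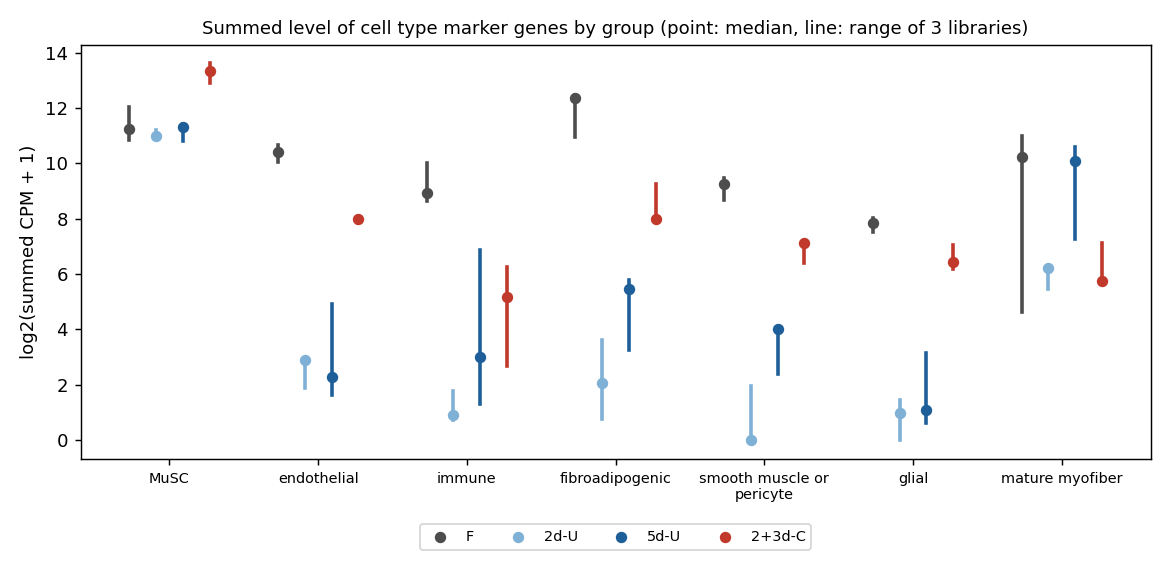
Summed level of the marker genes of 7 cell types, as log2(summed CPM + 1), in the 4 groups; points are medians and lines the range of 3 libraries. Endothelial, fibroadipogenic, smooth muscle or pericyte and glial markers were highest in F, lower in 2+3d-C and lowest in both uncompressed cultures. The MuSC sum was highest in 2+3d-C, where Myod1 was its largest part.

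Freshly isolated MuSCs had a high level of Krüppel-like factor RNA, which was lower in uncompressed culture and high again in compressed cells, but with another make-up. The 9 levels summed to 514 ± 87 RPKM (SD, n = 3) in F, 97.9 ± 14.7 RPKM in 2d-U, 120.3 ± 7.69 RPKM in 5d-U and 532 ± 124 RPKM in 2+3d-C. The lowest compressed library, at 411.8 RPKM, was above the highest uncompressed one, at 128.5 RPKM, and the F and 2+3d-C libraries overlapped. In F, Klf6 made up 31.4% of the sum, Klf2 22.8%, Klf9 17.5% and Klf4 14.2%. In 2d-U, Klf10 was the leading member, with 45.1% of the sum, and Klf4 and Klf9 made up 1.36% and 1.58%. In 2+3d-C, Klf9 led with 38.7%, followed by Klf6 with 25.1% and Klf4 with 24.6%, while Klf2 made up 3.24% and Klf10 3.12%.

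**Figure D2:**
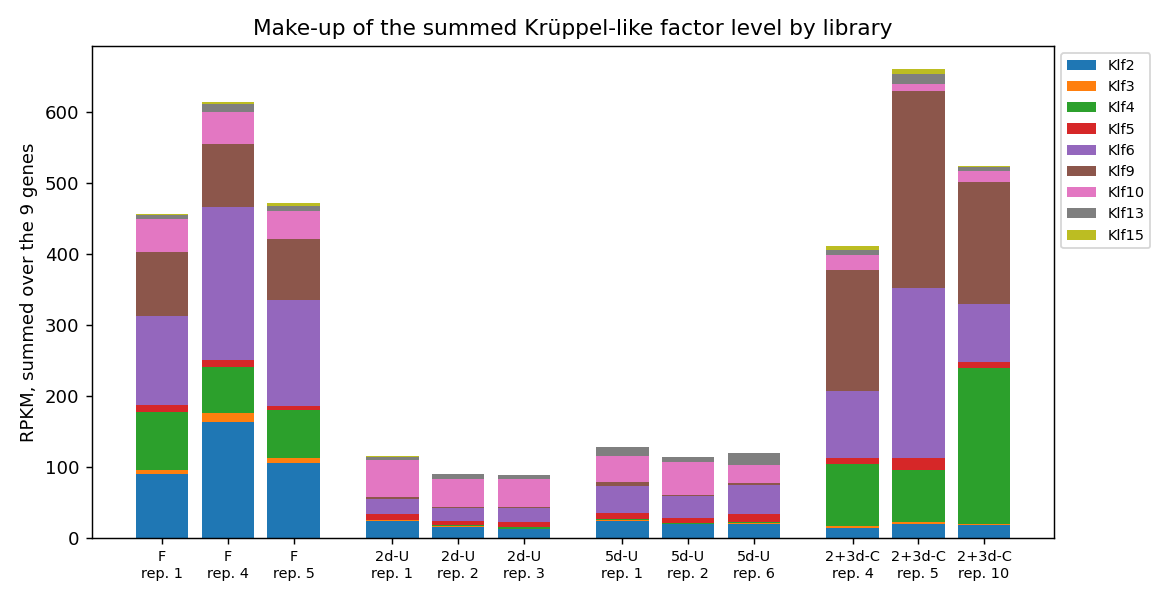
RPKM of the 9 Krüppel-like factors stacked in each of the 12 libraries. Bars of F and 2+3d-C libraries reach 411.8 to 660.1 RPKM and those of uncompressed cultures 88.45 to 128.5 RPKM; the Klf2 part is large in F and small in 2+3d-C, and the Klf9 part is largest in 2+3d-C.

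The main comparison set compressed cells against uncompressed cells of the same age in culture and asks which members respond to compression. Klf4, Klf6, Klf9 and Klf15 had higher levels in the 2+3d-C libraries, and Klf10 a lower one, than in 5d-U (edgeR quasi-likelihood test, called at a Benjamini-Hochberg adjusted p under 0.05 over 22635 genes). Of all genes tested, 9.14% were called higher and 13.4% lower. The median log2 fold change of the 9 members was 0.88, and that of all tested genes -1.05. Klf2, Klf3, Klf5 and Klf13 did not pass the test. Leaving out the 4 libraries with reads on silent families, which leaves 1 library in each of 5d-U and F, kept Klf4 and Klf9 as called, and the counts became 2 higher and 0 lower. In that fit 2.18% of all genes were called higher and 3.72% lower. The log2 fold changes of Klf6 and Klf10, no longer called, were 2.15 and -1.61 there, no smaller than with all libraries.

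Klf4, best known as one of the factors that reprogram cells to pluripotency, was at 86.86, 72.94 and 218.8 RPKM in replicates 4, 5 and 10 of 2+3d-C. In 5d-U it was at 1.141, 1.087 and 1.396 RPKM in replicates 1, 2 and 6. All compressed libraries lay far above all uncompressed ones, with replicate 10 well above the other 2. The log2 fold change was 6.71 ± 0.58 (SE), a 104-fold difference, with an adjusted p of 8.57e-06 in edgeR. Without replicate 10 it was 6.04. In 2d-U, the culture to which compression was applied, Klf4 was at 0.775, 1.233 and 1.824 RPKM, and in F at 81.8, 64.62 and 67.44 RPKM. The Klf4 level was therefore low in both uncompressed cultures, and the compressed and fresh libraries overlapped (log2 fold change of 2+3d-C against F 0.82 ± 0.46, adjusted p = 0.199 in edgeR).

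Klf9, a repressor of proliferation in several tissues that is induced by glucocorticoid and thyroid hormones, had the highest mean level of the 9 in compressed cells, although Klf4 was above it in replicate 10. It was at 170.3, 276.6 and 172.1 RPKM in replicates 4, 5 and 10 of 2+3d-C. In 5d-U it was at 4.806, 1.754 and 2.286 RPKM, and in 2d-U at 2.544, 0.8136 and 1.422 RPKM. The compressed and uncompressed libraries did not overlap, and the log2 fold change against 5d-U was 6.13 ± 0.59 (adjusted p = 1.51e-05 in edgeR). The F libraries were close together, at 90.98, 88.4 and 86.46 RPKM, and all 3 compressed libraries lay above them. The difference of 2+3d-C from F, 1.22 ± 0.48 on the log2 scale, did not pass (adjusted p = 0.106 in edgeR), and it was positive in all 9 other settings of the fit, from 0.70 to 1.31. The summed endothelial, fibroadipogenic, smooth muscle or pericyte and glial markers were all lower in the 3 compressed libraries than in any F library. The part of these cell types in the Klf9 levels was not tested.

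Klf6, an early-response and growth-suppressing member, was at 95.58, 239.7 and 82.43 RPKM in 2+3d-C. It was at 37.92, 31.38 and 41.55 RPKM in 5d-U and at 21.77, 18.57 and 20.16 RPKM in 2d-U. Klf6 was thus the one of the 4 higher members with a sizeable level in uncompressed culture, and its difference was the smallest, 1.91 ± 0.44 on the log2 scale (adjusted p = 0.00655 in edgeR). Replicate 5 was far above the other 2 compressed libraries, and without it the log2 fold change was 1.27. Without the 4 libraries named above, the log2 fold change was 2.15 with an adjusted p of 0.126 in edgeR.

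Klf15, a regulator of amino acid and lipid use in muscle and liver, was low everywhere. It had 1016, 137 and 59 reads in replicates 4, 5 and 10 of 2+3d-C, or 6.826, 5.929 and 0.966 RPKM. In 5d-U it had 20, 1 and 3 reads, or 0.3117, 0.0125 and 0.05258 RPKM. Replicate 10 was lower than the other 2 compressed libraries, but still above every uncompressed library. The log2 fold change was 5.18 ± 1.69 (adjusted p = 0.0401 in edgeR), and the call was lost in 6 of the 12 fits that left out 1 library each, with an adjusted p of up to 0.124. It was lost without F replicate 4 or 5, 5d-U replicate 2 or 6, or 2+3d-C replicate 4 or 5, and also without TMM (adjusted p = 0.0603 in edgeR). Without 5d-U replicate 1, which had most of the reads in that group, the fitted log2 fold change was 7.12, from libraries with 1 and 3 reads. The silent-family density of replicate 1 of 5d-U corresponds to 0.167 RPKM, against 0.3117 RPKM measured for Klf15 in that library.

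Klf10, induced early by TGF-beta and known as a repressor, went the other way. It was at 20.3, 11.04 and 14.45 RPKM in 2+3d-C and at 36.93, 46.59 and 25.06 RPKM in 5d-U. It was at 51.83, 40.24 and 40.24 RPKM in 2d-U and at 45.46, 44.84 and 39.86 RPKM in F. The 3 compressed libraries were the lowest of the 12 for Klf10, and the other groups overlapped. The log2 fold change against 5d-U was -1.25 ± 0.37 (adjusted p = 0.0278 in edgeR), against 2d-U -1.53 ± 0.38 (adjusted p = 0.00933 in edgeR) and against F -1.51 ± 0.38 (adjusted p = 0.0332 in edgeR). The first of these held in 4 of the 12 fits without 1 library, those without F replicate 4 or 5, 5d-U replicate 6 or 2+3d-C replicate 4, and its adjusted p was at most 0.106. The call against F held in 5 of 12, with an adjusted p of at most 0.109. It was lost without F replicate 4 or 5, any 2d-U library, or 2+3d-C replicate 5 or 10. Among these fits, the call against 2d-U was lost without 2d-U replicate 1 alone (adjusted p = 0.0569 in edgeR).

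**Figure D3:**
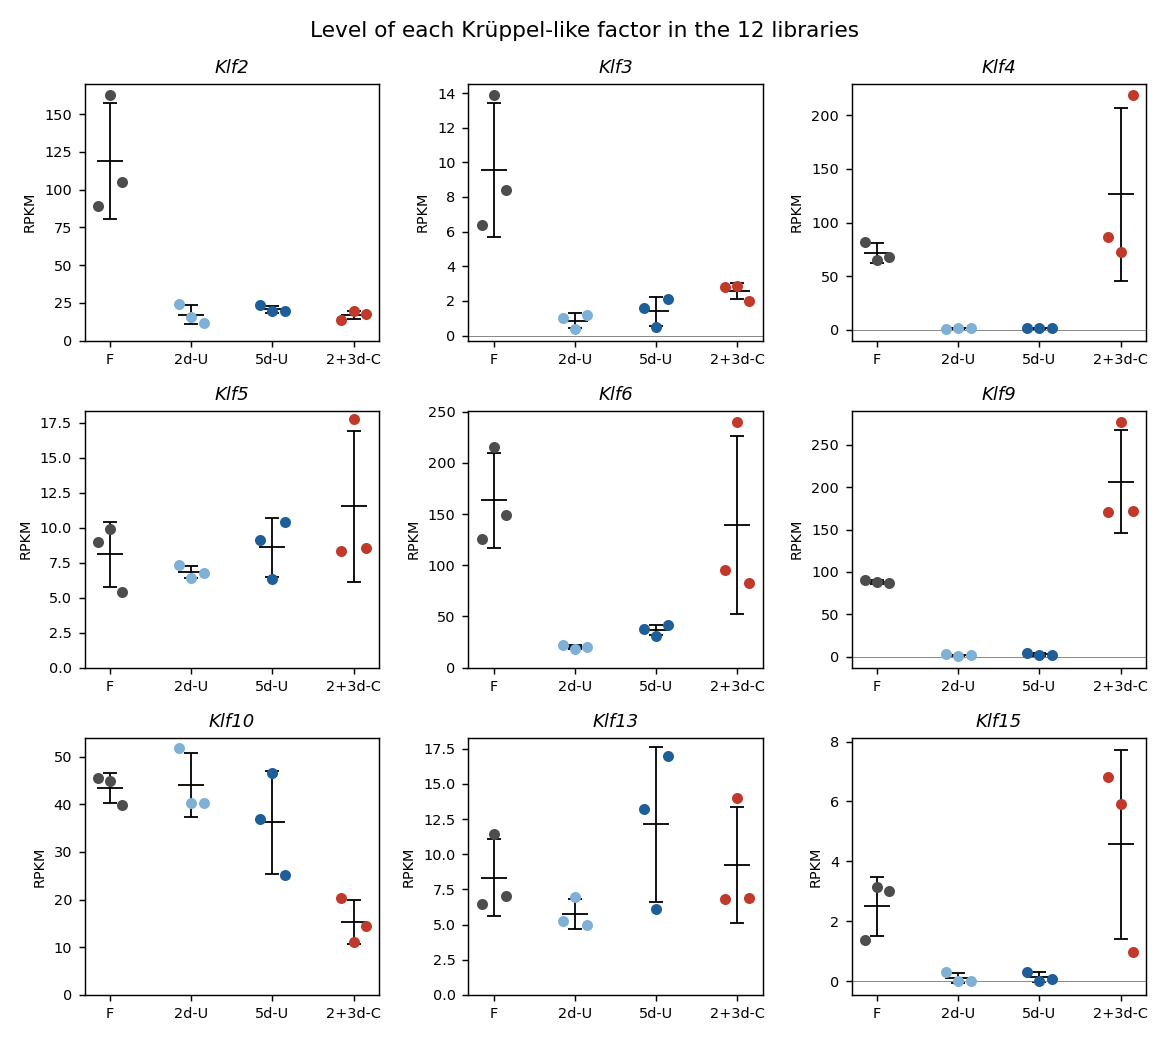
RPKM of each Krüppel-like factor in the 12 libraries by group (points), with the group mean (bar) and SD (whiskers, n = 3), each panel on its own linear scale. Klf4, Klf6, Klf9 and Klf15 are high in F and 2+3d-C and low in 2d-U and 5d-U, Klf2 and Klf3 are high in F alone, Klf10 is lowest in 2+3d-C, and the groups of Klf5 and Klf13 overlap, apart from Klf5 between 2d-U and 2+3d-C.

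Klf2, an endothelial and T cell quiescence factor, did not follow Klf4. It was at 13.92, 19.29 and 17.86 RPKM in 2+3d-C, at 23.45, 19.48 and 19.28 RPKM in 5d-U and at 23.95, 15.8 and 11.83 RPKM in 2d-U. In F it was at 89.38, 162.6 and 104.7 RPKM. The 3 cultured groups overlapped for Klf2, and every F library was above every cultured one. The log2 fold change of 2+3d-C against F was -2.81 ± 0.42 (adjusted p = 0.0028 in edgeR), and the call held in all 12 fits without 1 library. With the 4 libraries above left out, only F replicate 1 remains in F, and the change was -2.39 with an adjusted p of 0.269 in edgeR.

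A ratio of 2 genes within a library does not depend on the scaling between libraries. The Klf4/Klf2 ratio of RPKM was 0.915, 0.397 and 0.644 in F, between 0.0324 and 0.154 in the 6 uncompressed cultures, and 6.24, 3.78 and 12.3 in 2+3d-C. Klf2 thus exceeded Klf4 in 9 libraries, and Klf4 exceeded Klf2 in the 3 compressed libraries. The Klf9/Klf10 ratio was 2, 1.97 and 2.17 in F, between 0.0202 and 0.13 in the uncompressed cultures, and 8.39, 25 and 11.9 in 2+3d-C. For both ratios the compressed libraries were above all others. The order of Klf9/Klf10 was already set by the levels above, as Klf9 was highest and Klf10 lowest in the compressed libraries. The ratios describe those levels again and are no separate support. With 3 libraries a group, an exact 2-sided permutation test of a single value cannot give a p below 0.1. The Klf6/Klf2 ratio was 1.32–1.42 in F and 4.61–12.4 in 2+3d-C, and 0.909–2.16 in the uncompressed cultures. The Klf9/Klf4 ratio in 2+3d-C varied from 0.786 in replicate 10 to 3.79 in replicate 5, and overlapped with that of the other groups.

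**Figure D4:**
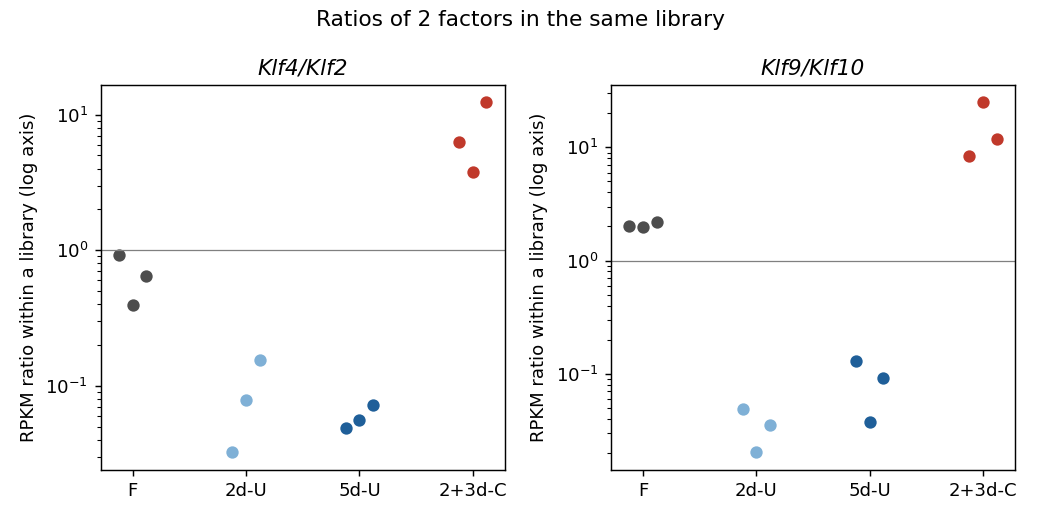
Ratio of the RPKM of Klf4 to Klf2 (left) and of Klf9 to Klf10 (right) within each library, on log axes, by group; the line marks a ratio of 1. The 3 compressed libraries lie at 3.78 to 12.3 and at 8.39 to 25, above the 9 others, and the uncompressed cultures lie at or below 0.154.

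Klf3, a repressor that works through the CtBP cofactors, was at 2.825, 2.858 and 2.02 RPKM in 2+3d-C and at 1.598, 0.4841 and 2.106 RPKM in 5d-U. It was at 1.007, 0.3868 and 1.198 RPKM in 2d-U and at 6.394, 13.87 and 8.395 RPKM in F. The 2+3d-C libraries were all above 2d-U and all below F, but neither difference passed (log2 fold change 1.57 ± 0.58, adjusted p = 0.061, and -1.90 ± 0.58, adjusted p = 0.0627, in edgeR). DESeq2 called both, with adjusted p of 0.0377 and 0.00547. Of the exon bases of Klf3, 3.59% overlap another gene, Gm20033, and no exon base of the other 8 members overlaps one. Klf5, an activator linked to proliferation and to muscle differentiation, was at 8.304, 17.74 and 8.523 RPKM in 2+3d-C and within 5.439 to 10.42 RPKM in the other 9 libraries. Klf13, a close relative of Klf9, was at 6.803, 14.03 and 6.881 RPKM in 2+3d-C and within 4.993 to 16.98 RPKM elsewhere. Neither Klf5 nor Klf13 passed the test in any of the 6 comparisons. Replicate 5 of 2+3d-C, the library with the fewest reads, had the highest compressed level of Klf3, Klf5, Klf6, Klf9 and Klf13 and also of Klf2, and the lowest of Klf4 and Klf10.

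Against the 2-day culture on which compression was placed, the same 4 members were called higher in 2+3d-C and Klf10 was called lower. Of all genes tested, 16% were called higher and 8.63% lower, and 11.2% and 13.9% when library sizes were not scaled with TMM. The log2 fold changes were 6.63 ± 0.58 for Klf4, 7.01 ± 0.61 for Klf9, 2.79 ± 0.45 for Klf6 and 5.46 ± 1.70 for Klf15 (adjusted p of 6.93e-06, 6.93e-06, 0.000599 and 0.0303 in edgeR). Klf15 had 44 reads in replicate 1 of 2d-U and 0 reads in replicates 2 and 3, where 3 reads would be 0.148 and 0.0827 CPM. Its call was lost in 3 of the 12 fits without 1 library, those without 2d-U replicate 2 or 3 or 2+3d-C replicate 4, and also without TMM (adjusted p = 0.0533 in edgeR) and with the compared groups alone (0.0778). Leaving out 1 library, the fitted value ran from 4.88 to 11.54, the latter without 2d-U replicate 1, where both libraries left have 0 reads and the value is no bound. Without 2+3d-C replicate 10 that of Klf4 was 5.96, and without 2+3d-C replicate 5 that of Klf6 was 2.14. The median log2 fold change of the members was 1.57, and that of all tested genes was 0. This comparison shares the compressed libraries with the one above, so the 2 are not independent. Between 5d-U and 2d-U, no member was called in either direction by edgeR or by DESeq2. Only Klf13 had an unadjusted p under 0.05, at 0.0368, with a log2 fold change of 1.08 ± 0.47. Of all genes, 1.87% were called higher in 5d-U and 0.243% lower, 0.557% and 0.199% without TMM, and 10.7% and 1.74% with DESeq2.

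**Figure D5:**
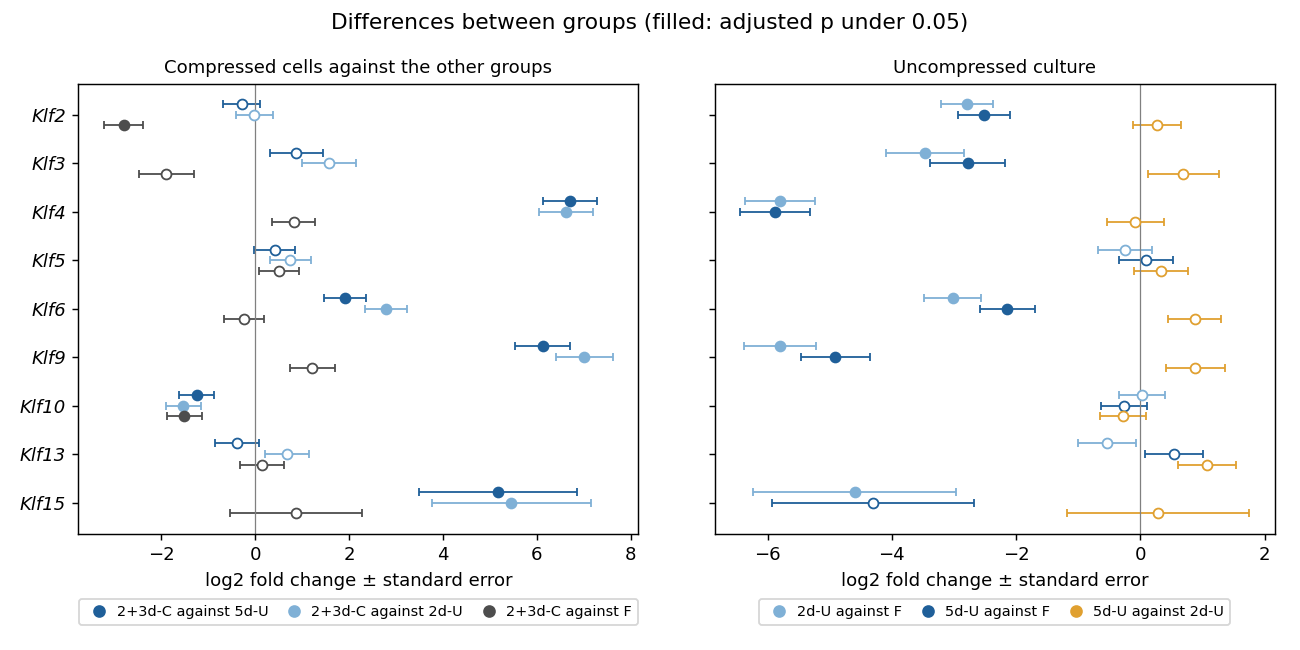
Log2 fold change with its standard error of each Krüppel-like factor in 3 comparisons of compressed cells (left) and 3 comparisons without them (right); filled points have an adjusted p under 0.05 in edgeR. Klf4, Klf6, Klf9 and Klf15 lie right of 0 against both uncompressed cultures, with filled points; Klf2 and Klf10 have filled points left of 0 against F; and no point of 5d-U against 2d-U is filled.

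Against freshly isolated cells, compressed cells had no member called higher and 2 called lower, Klf2 and Klf10. Of all genes, 1.94% were called higher and 4.47% lower in 2+3d-C than in F. These shares were 0.627% and 5.38% without TMM and 3.67% and 14.6% with DESeq2. Klf9 was the only member higher at an unadjusted p under 0.05, and DESeq2 called none higher and 3 lower. The median log2 fold change was 0.15 for the members and -0.76 for all tested genes. For Klf6 the log2 fold change was -0.23 ± 0.43 (adjusted p = 0.744 in edgeR), and its sign changed with the libraries used. For Klf15 it was 0.87 ± 1.41 (adjusted p = 0.704 in edgeR), from 1.371, 3.143 and 3.001 RPKM in F. A p that misses the threshold does not show that Klf4, Klf6 or Klf15 were at the same level in compressed and fresh cells. Without the 4 libraries with reads on silent families, no member was called lower, and 0.0985% of all genes were. In that fit Klf2 was at -2.39 on the log2 scale. Leaving out 1 library gave 3 lower without F replicate 1 or 5d-U replicate 2, where Klf3 was called too.

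Most of the family was lower in uncompressed culture than in fresh cells. In 2d-U, 6 members were called lower than in F, which were Klf2, Klf3, Klf4, Klf6, Klf9 and Klf15, and none higher, also at an unadjusted p and with DESeq2. Of all genes, 10.6% were called higher and 33.3% lower. The log2 fold changes were -5.80 ± 0.56 for Klf4, -5.79 ± 0.58 for Klf9, -3.46 ± 0.62 for Klf3, -3.02 ± 0.46 for Klf6 and -2.79 ± 0.42 for Klf2 (adjusted p of 2.42e-05, 2.73e-05, 0.00119, 0.000403 and 0.000352 in edgeR). For Klf15 it was -4.60 ± 1.63 (adjusted p = 0.0379 in edgeR), and the call was lost without F replicate 4 or 5 or 2d-U replicate 2 or 3. The median was -3.02 for the members and -1.63 for all tested genes. In 5d-U, 5 members were called lower than in F, the same as in 2d-U except Klf15, and none higher by edgeR, at an unadjusted p or by DESeq2. Klf15 was at -4.31 ± 1.63 (adjusted p = 0.0773 in edgeR) and was called by DESeq2, which called 6 lower, and in 5 of the 9 other settings in all. Of all genes, 11.6% were called higher and 8.9% lower, and 12.3% and 16.8% with DESeq2. The log2 fold changes were -5.88 ± 0.56 for Klf4, -4.91 ± 0.56 for Klf9, -2.78 ± 0.60 for Klf3, -2.52 ± 0.41 for Klf2 and -2.14 ± 0.44 for Klf6. Without F replicate 1 that of Klf3 was -3.44. Without the 4 libraries named above, 5 members were called lower in 2d-U and 1, Klf9, in 5d-U, where 6.69% and 0.617% of all genes were called lower. Klf4 was at -6.23 in 5d-U in that fit, with an adjusted p of 0.053 in edgeR. These 2 comparisons share the F libraries. All 7 endothelial markers were called lower than in F in both uncompressed cultures, as were the 5 fibroadipogenic markers, and the part of other cell types in the fall of the members was not tested.

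Among the other 17 genes of the Sp and Klf families, 15 were tested, and 4 were called higher and 3 lower in compressed cells than in 5d-U, and 0 in either direction without the 4 libraries with reads on silent families. Of all genes tested, 9.14% were called higher and 13.4% lower with all libraries, and 3 of 15 lower is not far from the second share. Without 5d-U replicate 6, 2 of the 15 were called higher, and without 2+3d-C replicate 4, 1 was called lower. Those with the smallest p were Sp4 (log2 fold change 3.72 ± 0.76, adjusted p = 0.00304 in edgeR), Sp2 (2.35 ± 0.52, adjusted p = 0.00521), Klf11 (2.38 ± 0.59, adjusted p = 0.0104) and Sp7. Klf11 is the closest relative of Klf10, and the 2 were called in opposite directions. Sp7, the bone-forming cell factor osterix, was at 6.73 ± 6.09 RPKM in 5d-U and had at most 3 reads in each compressed and each 2d-U library. Klf8 and Klf14, the other 2 called lower, also had at most 3 reads in each compressed library. In 5d-U they were low too, at 0.318 ± 0.087 and 0.178 ± 0.186 RPKM. The silent-family density corresponds to 0.167, 0.0021 and 0.0314 RPKM in replicates 1, 2 and 6 of 5d-U. Klf11 was at 9.62 ± 4.17 RPKM in F, 1.59 ± 0.90 RPKM in 2d-U, 1.08 ± 0.23 RPKM in 5d-U and 5.60 ± 1.07 RPKM in 2+3d-C. Klf17 and Sp6 did not pass the filter on low counts. Of the 15 genes tested, 6 were called lower in 2d-U than in F, where 33.3% of all genes were, and none higher, and none was higher at an unadjusted p under 0.05 or with DESeq2.

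In the list of 9 cofactor genes, in 2+3d-C against 5d-U, 1 was called higher, Crebbp, which encodes the acetyltransferase CBP (log2 fold change 2.17 ± 0.52, adjusted p = 0.00814 in edgeR), and none lower by edgeR or DESeq2 (1, Hdac1, at an unadjusted p under 0.05). Of all genes tested, 9.14% were called higher and 13.4% lower against 5d-U, and 1 of 9 higher is near the first share. The count higher was 2 without 5d-U replicate 2, and the count lower was 1 without 5d-U replicate 1 or 2+3d-C replicate 5. Crebbp was not called without the 4 libraries with reads on silent families. Crebbp was at 9.29 ± 5.42 RPKM in 2+3d-C, 2.06 ± 0.60 RPKM in 5d-U, 1.008 ± 0.293 RPKM in 2d-U and 5.70 ± 0.78 RPKM in F. The corepressors Ctbp1, Ctbp2, Sin3a and Sin3b and the deacetylases Hdac1 and Hdac2 did not pass. In 2d-U against F, Crebbp, Ep300 and Kat2b, all acetyltransferases, were called lower, and Ctbp1, Ctbp2 and Hdac2 higher. In that comparison 33.3% of all genes were called lower and 10.6% higher, and 3 of 9 lower is near the first share. The count higher was 0 without F replicate 4 or 5 or without any one of the 2d-U libraries, and the count lower was 3 in all 12 fits without 1 library.

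Of the 6 genes of the ERK5-MEF2 axis, Mef2d was called higher in compressed cells than in 5d-U (log2 fold change 3.23 ± 0.53, adjusted p = 0.000753 in edgeR) and none lower by edgeR, with 1 lower at an unadjusted p under 0.05 and 1 by DESeq2. In this comparison 9.14% of all genes were called higher and 13.4% lower, and 1 of 6 is not far from the first share. Mef2d was at 28.2 ± 13.0 RPKM in 2+3d-C, 3.02 ± 1.47 RPKM in 5d-U, 7.59 ± 1.43 RPKM in 2d-U and 12.5 ± 3.88 RPKM in F. The kinase genes Mapk7, which encodes ERK5, and Map2k5, its activating kinase, did not pass in this comparison. Mef2c was called lower in 2+3d-C than in F, at 0.189 ± 0.213 RPKM against 4.28 ± 1.17 RPKM (adjusted p = 0.0331 in edgeR), a call lost without F replicate 4 or 5 or 2+3d-C replicate 5.

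Of the 8 genes of the glucocorticoid response, to which Klf9 and Klf15 also belong, 6 were called higher in compressed cells than in 5d-U. None was lower by edgeR, by DESeq2 or at an unadjusted p under 0.05. The median log2 fold change was 4.39 against -1.05 for all genes, of which 9.14% were called higher and 13.4% lower. Without the 4 libraries with reads on silent families, 4 of these 8 genes were called higher. Dusp1, a MAP kinase phosphatase, rose by 5.38 ± 0.57 and Sgk1, a serum- and glucocorticoid-induced kinase, by 4.80 ± 0.55 on the log2 scale (adjusted p of 3e-05 and 5.21e-05 in edgeR). Nr3c1, the glucocorticoid receptor itself, rose by 3.19 ± 0.46 (adjusted p = 0.00029 in edgeR), and the metallothionein Mt2 by 4.73 ± 0.74 (adjusted p = 0.000513 in edgeR). Nr3c1 was at 33.6 ± 5.34 RPKM in 2+3d-C, 3.67 ± 0.49 RPKM in 5d-U, 1.68 ± 0.87 RPKM in 2d-U and 23.6 ± 5.71 RPKM in F. Tsc22d3, which encodes the glucocorticoid-induced leucine zipper, and Zbtb16 did not pass (adjusted p of 0.427 and 0.0837 in edgeR). In 2d-U against F, 7 of the 8 were called lower, with Fkbp5 the one that did not pass. None was higher by either tool or at an unadjusted p under 0.05. Of all genes, 33.3% were called lower and 10.6% higher there. The median log2 fold change was -4.015 for the 8 genes and -1.63 for all tested genes.

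Of the 11 TGF-beta genes, 8 were called higher in compressed cells than in 5d-U and none lower by edgeR, by DESeq2 or at an unadjusted p under 0.05, with a median log2 fold change of 2.25, and 2 were called higher without the 4 libraries with reads on silent families. Of all genes tested, 9.14% were called higher and 13.4% lower with all libraries, and their median log2 fold change was -1.05. The count of TGF-beta genes called higher was 5 without 5d-U replicate 6 or 2+3d-C replicate 4. Smad3, the signal transducer, rose by 6.00 ± 0.67 on the log2 scale, the ligands Tgfb2 and Tgfb3 by 4.14 ± 0.69 and 3.79 ± 0.64, and the receptor Tgfbr2 by 3.32 ± 0.69 (adjusted p of 4.13e-05, 0.000855, 0.000901 and 0.00347 in edgeR). Klf10, first described as a gene induced by this pathway, was called lower in the same comparison. Smad7, which is also known to be induced by the pathway, did not pass (adjusted p = 0.536 in edgeR), and Skil, a feedback repressor, was called higher (1.65 ± 0.44, adjusted p = 0.016 in edgeR).

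Of 12 genes described in other tissues as targets of the family, 3 were called higher and 4 lower in compressed cells than in 5d-U, and 0 and 2 without the 4 libraries with reads on silent families. Of all genes tested, 9.14% were called higher and 13.4% lower with all libraries. The count lower among the 12 targets was 2 without 2+3d-C replicate 4 and 5 without 2+3d-C replicate 10. The 3 higher, Thbd, Nos3 and S1pr1, are endothelial targets of Klf2 and Klf4, with log2 fold changes of 4.95 ± 0.98, 5.07 ± 1.03 and 4.97 ± 1.08 (adjusted p of 0.00255, 0.00296 and 0.0045 in edgeR). None of the 3 passed in 2+3d-C against F. S1pr1 was at 125.3 ± 18.4 RPKM in F, 25.2 ± 7.06 RPKM in 2+3d-C and 0.80 ± 0.86 RPKM in 5d-U. The part of endothelial cells in these values was not tested. Lgals3 and the cyclin gene Ccnd1 were lower, by -5.61 ± 0.79 and -5.54 ± 0.85 on the log2 scale (adjusted p of 0.000235 and 0.000474 in edgeR). Ccnd1 was at 3.28 ± 2.45 RPKM in 2+3d-C, 151.5 ± 91.9 RPKM in 5d-U, 64.5 ± 5.72 RPKM in 2d-U and 4.86 ± 2.56 RPKM in F. Trim63, a ubiquitin ligase of muscle atrophy, was also called lower and had at most 3 reads in each compressed library. Cdkn1a, which encodes p21 and is a known target of Klf4 and Klf6, did not pass (adjusted p = 0.634 in edgeR). The metabolic targets of Klf15, Bcat2 and Prodh, did not pass in this comparison (adjusted p of 0.623 and 0.684 in edgeR).

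Across the 12 libraries, the log2 CPM of Klf4 and Klf9 had a Pearson r of 0.963, Klf9 and Klf15 0.939, and Klf6 and Klf9 0.925. Klf2 and Klf4 had 0.438, and Klf5 and Klf10 had the lowest, -0.668. These values describe 4 groups of 3 libraries that share conditions, so they largely follow the group levels, and no p is given. Over the 10757 genes whose mean reached 5 CPM, the closest to Klf4 were Cdh13 (r = 0.987), which encodes T-cadherin, and Sorbs3 (0.984), which encodes vinexin. Those most like Klf9 were Vtn (0.991), which encodes vitronectin, and Rarres2 (0.989), which encodes chemerin, and those most like Klf6 were Ncmap (0.975) and Car4 (0.974). Klf15 was most like Irf9 (0.973) and Sec24a (0.961), and Klf10 most like Fig4 and Vav2 (both 0.948). For Klf2 they were Wif1 (0.971) and Kera (0.967), for Klf3 Cd38 (0.949) and Mmrn2 (0.944), for Klf13 Galt (0.893) and Slc50a1 (0.835), and for Klf5 Gm12328 (0.886) and Gm37486 (0.88). By Spearman's rho, other genes led for 7 of the 9 members, and the pair leading for Klf15 and the first of Klf13 stayed.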

How the data were processed

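RNA was taken from sorted MuSCs in TRIzol and made into cDNA with the SMART-seq v4 kit, and single-end reads were sequenced. The authors ran the nf-core/rnaseq pipeline on the mm10 genome and deposited unnormalized read counts per gene from featureCounts, counted over exons without strand. A merged table was not used. Groups were taken from the labels. The 9 members and the gene lists were chosen with earlier results of these data known, and are not independent of them. Named list genes were up to 4 of each list with the smallest p in the comparison described and a mean of at least 5 CPM; others named were chosen after their values were seen, and some list members are not reported here.

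Counts were fitted with edgeR 4.0.16 in R 4.3.3 (filterByExpr, TMM, glmQLFit and glmQLFTest, 1 fit over 12 libraries, Benjamini-Hochberg adjustment over 22635 genes), with DESeq2 1.42.0 as an alternative. The test was tried on simulated counts for 2+3d-C against 5d-U: of 200 genes among 20419 changed 4-fold, 50.5% were recovered, with 1 false call. The simulation gave all genes the same dispersion of 0.2 and changed only genes above 5 CPM. It gave no library an excess of reads on silent families, so it does not measure the error rate in the real libraries. Exon overlaps came from GENCODE, and likeness from log2 CPM with a prior count of 2.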

Additional observations from a re-analysis of the deposited data

How the results depend on the processing

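Of the 9 members, Klf4 and Klf9 kept their calls in 2+3d-C against both uncompressed cultures in all 9 refits and all 12 fits without 1 library. In 2+3d-C against 5d-U, the count called lower, 1 (Klf10), became 0 with no filter on low counts, with the compared groups alone, at an adjusted p under 0.01 and without the 4 libraries with reads on silent families; that last fit called 2 higher in place of 4, and 421 higher and 717 lower of all genes in place of 2068 and 3042. In 2+3d-C against F, the count lower was 1 with no filter and at 0.01, and 0 without those 4 libraries (19 of all genes), where 5d-U against F had 1 lower (119 of all genes). Leaving out 1 library at a time gave 3–4 higher and 0–1 lower for 2+3d-C against 5d-U, 3–5 and 0–1 against 2d-U, 1–3 lower against F, and 5–6 lower in 2d-U and in 5d-U against F. A fit with only 1 library in a group assumes that it varies like the others. Libraries with the same replicate number did not deviate alike from their group means (correlations between -0.424 and 0.0322). Some of these libraries were among the 4 with reads on silent families, so these values cannot decide whether libraries shared a sort. The study reports that cells of each sort were assigned to the conditions at random, and a shared sort was not tested. With a replicate block, 2 were called higher and 0 lower against 5d-U, 2 and 0 against 2d-U, 1 lower against F, 3 lower in 2d-U against F and 2 lower in 5d-U against F. The Klf6 difference of 2+3d-C from F turned to 0.15 without the 4 libraries, and ranged from -0.86 to 0.045 without 1 library. Of the 23 pairs of member and comparison whose log2 fold change the report does not print, all with an unadjusted p above 0.05, 16 changed sign in 1 or more of 9 settings and 0 were called in any. Without TMM the median log2 fold change of all genes moved from -0.76 to -1.25 for 2+3d-C against F and from -1.05 to -1.21 against 5d-U. The cause of these changes was not tested.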
